A study of Mus musculus with 6 samples.

Results

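The 10 genes described here encode the machinery that displays peptides on major histocompatibility complex (MHC) class II molecules. They were chosen by name for their role, with no threshold on their values, from the 24346 gene symbols in the expression files, and all 10 were found there. They comprise 3 genes for chains of the classical class II molecules (H2-Aa, H2-Ab1 and H2-Eb1), 5 genes for chains of the peptide-editing molecules H2-M and H2-O (H2-DMa, H2-DMb1, H2-DMb2, H2-Oa and H2-Ob), the invariant chain gene Cd74 and the transactivator gene Ciita. Expression was measured by RNA-sequencing of tumor endothelial cells (ECs), sorted as CD31 positive and CD45 negative cells from MC38 tumors at day 19. MC38 is a mouse colon carcinoma line that was grown under the skin. The samples were 3 of wild-type C57BL/6 mice (WT) and 3 of mice that lack Apelin in every cell from the germline on (Apelin-KO, also C57BL/6), all aged between 8 and 10 weeks. The titles of all 6 samples also name saline, so any saline treatment was shared by both groups. The comparison asks how expression in tumor ECs differs with and without Apelin, a peptide ligand of the APJ receptor. Values are FPKM, which divide the fragments of a gene by its transcript length and by the mapped fragments of the library, so that levels can be set side by side between genes. Nothing in the sources used here says more of the replicates than that they are separate samples, so the p-values measure the spread between these samples.

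A class II molecule is a pair of an alpha and a beta chain that carries a peptide from the endosomal pathway to the cell surface, where CD4+ T cells read it. The pair is assembled with the invariant chain, which guards the peptide groove until proteases trim it to a short remnant, CLIP. H2-M then exchanges CLIP for other peptides and H2-O restrains H2-M. Dendritic cells, macrophages and B cells express class II molecules constitutively, while ECs can be induced to do so by interferon gamma through CIITA, a coactivator that does not bind DNA but is recruited by factors sitting on a conserved promoter module with an X box and a Y box. C57BL/6 mice carry the H-2b haplotype, in which I-A is the class II molecule at the cell surface, because the I-E alpha chain gene is defective. H2-Aa and H2-Ab1 encode the alpha and beta chain of I-A, and H2-Eb1 encodes the I-E beta chain.

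Promoter sequences from RefSeq (GRCm38.p6), each covering 250 bases before and 50 bases after a gene start, were found for 7 of the 10 members. H2-Ab1, Cd74 and Ciita had no entry. Below are 60-base windows of 6 promoters that hold the Y box letters. The letters marked as an X box were taken from 4 of them, so a window without that match is not shown to lack an X box. Capitals mark matches to AACNNATGATG (an X box, the letters that 4 of these promoters share, with N where they differ), TGACGTCA (an X2 element, the palindrome that CREB factors recognise) and TGATTGG (a Y box, the reverse complement of a CCAAT sequence).
H2-Aa: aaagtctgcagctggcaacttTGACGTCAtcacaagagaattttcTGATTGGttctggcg
H2-Eb1: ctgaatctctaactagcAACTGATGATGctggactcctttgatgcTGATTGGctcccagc
H2-DMb1: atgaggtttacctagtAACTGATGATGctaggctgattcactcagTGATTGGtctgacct
H2-DMb2: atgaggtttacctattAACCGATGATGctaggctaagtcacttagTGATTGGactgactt
H2-Ob: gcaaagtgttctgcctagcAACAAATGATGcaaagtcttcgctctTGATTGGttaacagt
H2-Oa: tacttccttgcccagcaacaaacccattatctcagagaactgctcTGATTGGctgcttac

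The windows lie at chr17:34287859-34287918 for H2-Aa on the minus strand, and on the plus strand at chr17:34305761-34305820 for H2-Eb1, chr17:34153083-34153142 for H2-DMb1, chr17:34145112-34145171 for H2-DMb2, chr17:34238801-34238860 for H2-Ob and chr17:34092289-34092348 for H2-Oa. The letters were chosen after the members' promoters had been read, and both strands of 32851 promoters of the same length were searched, so the following shares are descriptions. The Y box letters stood in 7.82% of all promoters, the X2 letters in 1.79% and the X box letters in 0.137%. The X box letters followed by the Y box letters at a distance of 10 to 30 bases stood in 4 of the 32851 promoters, or 0.0122%, and these were the promoters of H2-Eb1, H2-DMb1, H2-DMb2 and H2-Ob from which the X box letters were taken, with no other gene. The gap between both matches was 17 bases in H2-Eb1, 18 bases in H2-DMb1 and H2-DMb2, and 15 bases in H2-Ob. The promoters of H2-DMa held none of these letters. The H2-DMb1 and H2-DMb2 windows were identical at 53 of 60 bases (88.3%).

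The 8 H2 members lie close together on chromosome 17 of GRCm38 (mm10), Cd74 lies on chromosome 18 and Ciita on chromosome 16 (10480059 to 10528418, plus strand, 19 exons). From H2-Oa (34092340 to 34095234, 5 exons) the cluster runs through H2-DMa (34119541 to 34139101, 6 exons), H2-DMb2 (34143307 to 34151555, 6 exons), H2-DMb1 (34153072 to 34160230, 6 exons), H2-Ob (34238903 to 34254414, 6 exons), H2-Ab1 (34257689 to 34269419, 6 exons) and H2-Aa (34282744 to 34287823, 5 exons) to H2-Eb1 (34305867 to 34316674, 6 exons). Among these, H2-Aa is the only gene on the minus strand. H2-DMb1 and H2-DMb2 are near copies: of the 1330 stretches of 75 bases, the read length, in the H2-DMb1 transcript, 254 (19.1%) also occur in H2-DMb2, so reads from 1 gene could be assigned to the other. Exons of H2-DMa overlap those of Brd2, H2-Oa those of BC051537 and Ciita those of Dexi, each on the other strand, and Cd74 holds Mir5107 on the same strand. Whether strand was used in the counting is not given in the sources used here.

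The 6 libraries were alike in size and carried the genotype of their labels. Summed FPKM per sample lay between 489396 and 529018, and 14089 to 14621 genes were above 0. The files hold no read numbers. Depth estimated from the steps of low FPKM was 8920000 to 10170000 reads, with 69.0% to 73.3% of the low values within 0.1 of a whole read. Apln, which encodes Apelin, had 432, 435 and 504 FPKM in WT and 9.96, 17.5 and 24.3 FPKM in Apelin-KO samples. Its log2 fold change was 4.73 ± 0.29 (SE, adjusted p = 0.00747 in limma), and it alone had an adjusted p under 0.05 among the 10964 genes that averaged at least 1 FPKM and were tested, a share of 0.00912%. The markers of the sort were Pecam1, which encodes CD31, with 553 to 846 FPKM over the 6 samples, and Ptprc, which encodes CD45, with 0.043 to 4.84 FPKM. Other pan-leukocyte markers stood higher, with 18.9 to 56.9 FPKM for Laptm5 and 9.355 to 79.3 FPKM for Cd52, so leukocyte transcripts were present in each library.

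Class II transcripts were present in every library, at levels that differed widely between the members. Over the 6 samples the mean was 204 FPKM for Cd74, 106 FPKM for H2-Ab1, 56.0 FPKM for H2-Aa, 21.2 FPKM for H2-Eb1, 9.69 FPKM for H2-DMb1 and 6.86 FPKM for H2-DMa. These 6 genes passed the filter of 1 FPKM. The other 4 did not, with means of 0.677 FPKM for Ciita, 0.520 FPKM for H2-Ob, 0.280 FPKM for H2-DMb2 and 0.0857 FPKM for H2-Oa. Each sample on its own gave the order Cd74, H2-Ab1, H2-Aa, H2-Eb1, H2-DMb1, and in each H2-DMa stood above Ciita. H2-DMb1 was above H2-DMa in 5 of 6 samples, Ciita above H2-Ob in 4 of 6 and H2-Ob above H2-DMb2 in 5 of 6. These neighbours were not apart beyond their spread. H2-DMb2 was above H2-Oa in 4 of 6 samples, and both were at 0 in WT 1 and Apelin-KO 3.

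**Figure D1:**
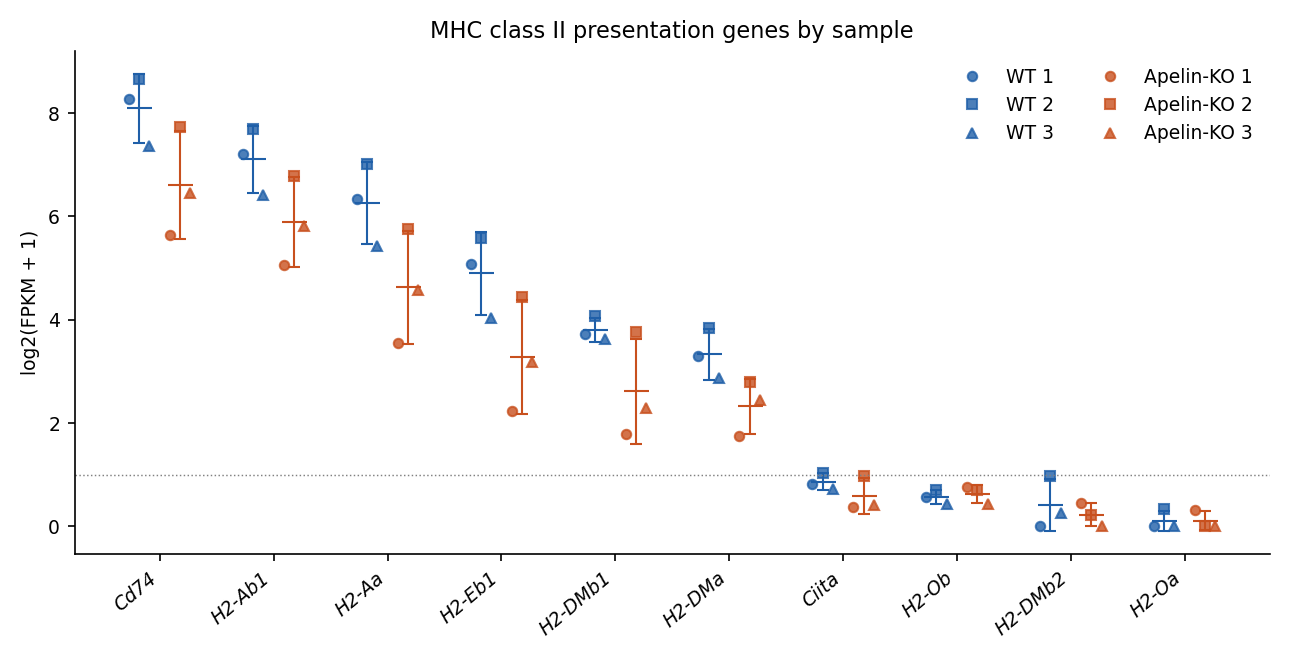
Expression of the 10 MHC class II presentation genes in each sample, as log2(FPKM + 1) (vertical axis), with WT in blue and Apelin-KO in orange, symbols for the replicate numbers, horizontal marks for the group mean and whiskers for 1 SD (n = 3). The dotted line stands at 1 FPKM. Cd74, the chains of I-A and I-E, H2-DMb1 and H2-DMa lie above it in all 6 samples, with WT 2 highest and Apelin-KO 1 lowest, while the other 4 genes lie at or near the line or under it.

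The 6 tested members were all higher in the WT mean, by 2.08-fold to 2.93-fold, but the samples of one genotype differed widely and none of the 6 passed the test over all genes. Their unadjusted p-values were between 0.0181 and 0.0382 and their adjusted p-values between 0.501 and 0.516 (limma). A log2 fold change above 0 was found in 6 of 6, beside 47.5% of all genes tested. All 6 had an unadjusted p under 0.05 with WT higher, beside 5.17% of the 10964 genes tested, and all 6 were more than 2-fold higher by log2 fold change, beside 0.766% of genes with both. These 6 genes are known to be controlled together and were measured in the same libraries, so they are not 6 separate pieces of evidence. The number with an unadjusted p under 0.05 was 0 without WT 2, 0 without Apelin-KO 1, 1 without WT 1, 1 without Apelin-KO 3, 5 without WT 3 and 6 without Apelin-KO 2. The median log2 fold change of the 6 was 1.35, and that of all genes tested was -0.01. In sorted bulk samples such as these, fewer cells of a type and less RNA per cell cannot be told apart.

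H2-Aa, the I-A alpha chain, had 79.5, 128 and 42.2 FPKM in WT 1, 2 and 3 and 10.7, 52.7 and 22.8 FPKM in Apelin-KO 1, 2 and 3. The groups overlapped, since Apelin-KO 2 stood above WT 3. The means were 83.2 ± 43.1 FPKM and 28.8 ± 21.6 FPKM (SD, n = 3 each), so that Apelin-KO samples had on average 34.6% of the WT level. The log2 fold change, always WT minus Apelin-KO on the scale log2(FPKM + 1), was 1.63 ± 0.60 (SE, adjusted p = 0.513), and an exact permutation test over the 6 samples gave p = 0.2 (two-sided), where 0.1 is the smallest that groups of 3 against 3 allow.

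H2-Ab1, the I-A beta chain, had 147, 207 and 84.5 FPKM in WT and 32.2, 109.6 and 55.6 FPKM in Apelin-KO samples. The samples followed the same order as for H2-Aa: WT 2, WT 1, Apelin-KO 2, WT 3, Apelin-KO 3 and Apelin-KO 1. The means were 146 ± 61.3 FPKM and 65.8 ± 39.7 FPKM (SD, n = 3), and the log2 fold change was 1.22 ± 0.48 (SE, adjusted p = 0.516, exact permutation p = 0.2). H2-Eb1, the I-E beta chain, had 32.6, 47.1 and 15.3 FPKM in WT and 3.70, 20.7 and 8.06 FPKM in Apelin-KO samples, again in that order. Its log2 fold change was 1.61 ± 0.60 (SE, adjusted p = 0.513, exact permutation p = 0.2), and its highest sample stood 12.7-fold above its lowest. The transcript was thus measured in a strain in which the I-E alpha locus, H2-Ea-ps, was listed at 0 in all 6 samples, and so was the related beta locus H2-Eb2.

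Cd74, the invariant chain, was the most abundant member, with 307, 404 and 163 FPKM in WT and 49.2, 211 and 86.8 FPKM in Apelin-KO samples. The order of the samples was again that of H2-Aa, and the groups overlapped at Apelin-KO 2 and WT 3. The means were 292 ± 121 FPKM and 116 ± 84.7 FPKM (SD, n = 3), with a log2 fold change of 1.49 ± 0.55 (SE, adjusted p = 0.513, exact permutation p = 0.2). These values rest on an estimated 552 to 4365 reads per sample, against 92.3 to 1061 for H2-Aa, so counting error is small beside the spread between samples.

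Of the peptide editors, both chains of H2-M were measured in every sample. H2-DMa, the alpha chain, had 8.77, 13.4 and 6.28 FPKM in WT and 2.34, 5.94 and 4.42 FPKM in Apelin-KO samples. It was the only member whose groups did not overlap, a pattern with WT higher that 6.61% of all genes tested showed. The log2 fold change of H2-DMa was 1.01 ± 0.33 (SE, adjusted p = 0.501), and the exact permutation p was 0.1. H2-DMb1, a beta chain that pairs with it, had 12.2, 15.8 and 11.3 FPKM in WT and 2.465, 12.5 and 3.91 FPKM in Apelin-KO samples. Here Apelin-KO 2 reached the range of the WT samples, and the log2 fold change was 1.19 ± 0.46 (SE, adjusted p = 0.515, exact permutation p = 0.3).

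H2-DMb2, the neighbouring beta chain gene with a nearly identical promoter window, stood far under H2-DMb1. It had 0, 0.955 and 0.188 FPKM in WT and 0.367, 0.168 and 0 FPKM in Apelin-KO samples, an estimated 0 to 10.4 reads. A part of so few reads could come from H2-DMb1 through the stretches both transcripts share, which was not tested. The H2-O chains were also low. H2-Oa was listed at 0 in 4 samples and had 0.262 FPKM in WT 2 and 0.252 FPKM in Apelin-KO 1, about 2.08 reads in each, so no difference was detectable at this depth. H2-Ob had 0.477, 0.628 and 0.352 FPKM in WT and 0.689, 0.629 and 0.342 FPKM in Apelin-KO samples, an estimated 7.91 to 15.8 reads. The H2-Ob groups overlapped fully, with a log2 fold change of -0.06 ± 0.12 (SE) in a fit without the filter, and H2-Ob was the only 1 of the 10 members with a lower mean log2 level in WT. H2-O is known mainly from B cells and thymic epithelium.

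Ciita, which sets class II transcription in most cells, had 0.770, 1.05 and 0.643 FPKM in WT and 0.300, 0.976 and 0.322 FPKM in Apelin-KO samples. WT 2 was highest, Apelin-KO 2 came next, and Apelin-KO 1 and 3 were the lowest, the order also seen for H2-DMb1. The means were 0.822 ± 0.210 FPKM and 0.533 ± 0.384 FPKM (SD, n = 3), the exact permutation p was 0.3, and the log2 fold change was 0.27 ± 0.19 (SE, adjusted p = 0.705) in a fit without the filter. It was 0.47 without Apelin-KO 2 (unadjusted p = 0.0112, adjusted p = 0.433 in limma), 0.17 without Apelin-KO 1, and 0.18 without WT 2 or without Apelin-KO 3. At this level the pseudocount of 1 compresses differences: the mean in Apelin-KO samples was 64.8% of that in WT, and the estimated reads ran from 16.2 to 57.6. With a pseudocount of 0.1 the log2 fold change of Ciita was 0.68 ± 0.43 (SE, adjusted p = 0.745), and with one of 5 it was 0.075.

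**Figure D2:**
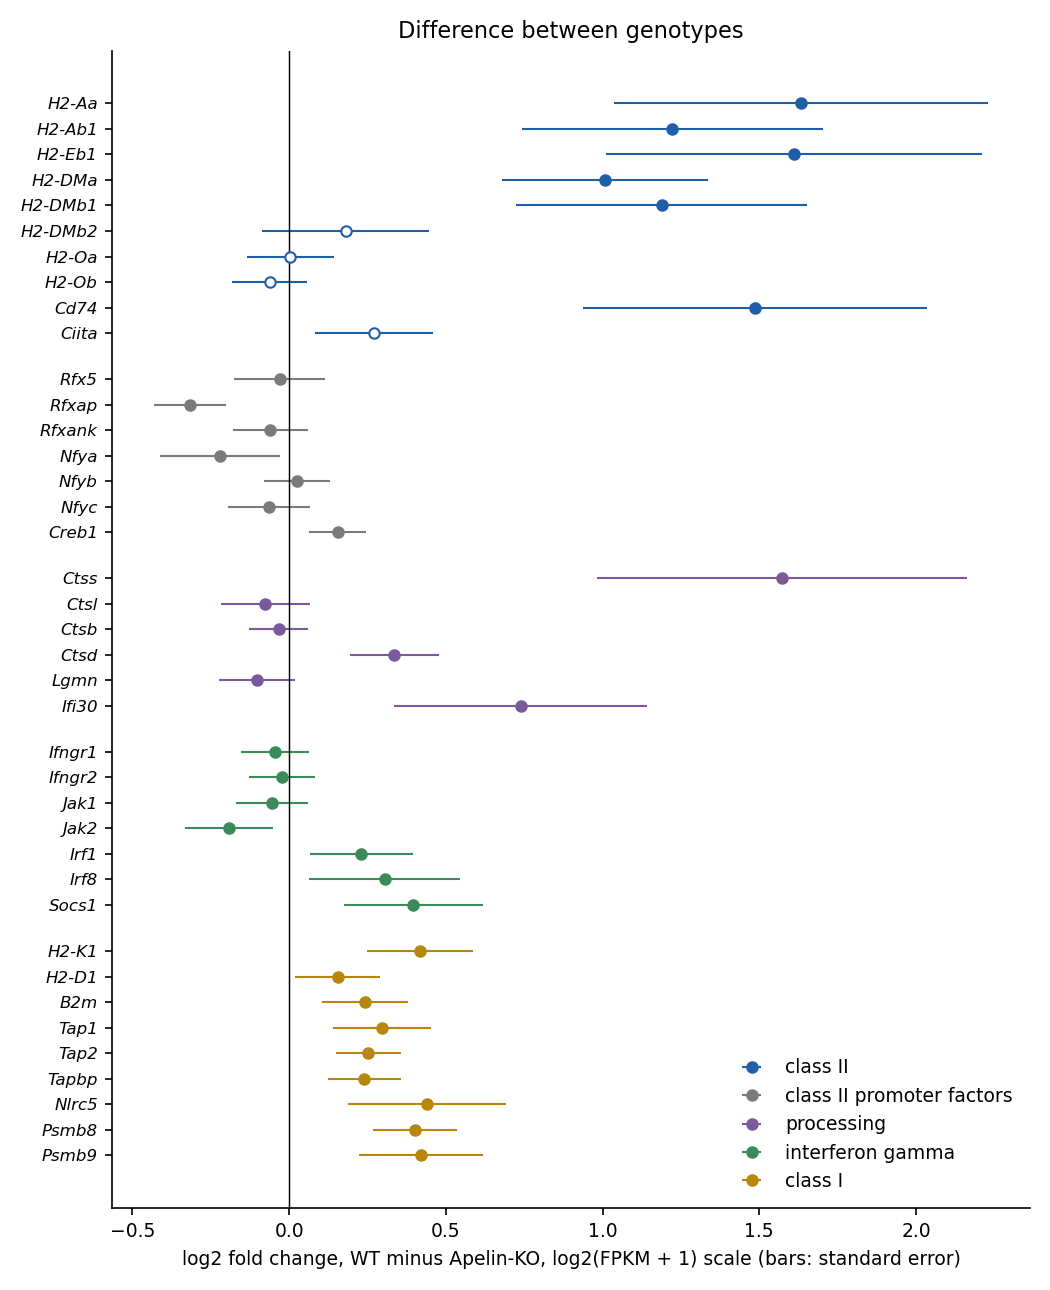
Log2 fold change, WT minus Apelin-KO on the log2(FPKM + 1) scale, with bars of 1 standard error (3 samples per group), for the class II members, the factors that bind their promoters, endosomal processing genes, 7 of the 8 interferon gamma signalling genes and class I genes. Open symbols mark members with a mean under 1 FPKM, from a fit without the filter. The 6 tested members and Ctss lie between 1.01 and 1.63, and the other genes shown lie between -0.32 and 0.74, with no gene of the plot passing an adjusted p under 0.05.

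The proportions between the I-A and I-E chains and the invariant chain varied less than their levels. Within a sample, the ratio of H2-Eb1 to H2-Aa was 0.411, 0.368 and 0.362 in WT and 0.345, 0.392 and 0.353 in Apelin-KO samples, a 1.19-fold range over samples in which H2-Aa itself ranged 11.9-fold. The ratio of Cd74 to H2-Aa was 3.87, 3.16 and 3.87 in WT and 4.58, 4.0 and 3.80 in Apelin-KO samples. Both ratios overlapped between the genotypes (exact permutation p = 0.5 and 0.3). The ratio of H2-Ab1 to H2-Aa was 1.85, 1.62 and 2.0 in WT and 3.0, 2.08 and 2.44 in Apelin-KO samples. It was lower in every WT sample than in any Apelin-KO sample, at 1.82 ± 0.195 against 2.51 ± 0.467 (SD, n = 3, exact permutation p = 0.1), and it was highest in Apelin-KO 1, where both genes were lowest. The ratio of H2-DMb1 to H2-DMa was 1.39, 1.18 and 1.80 in WT and 1.05, 2.10 and 0.884 in Apelin-KO samples (exact permutation p = 0.7). Adjusted over the 4 ratios, the exact p-values were 0.667, 0.6, 0.4 and 0.7 in the order given, and none passed. A planned log2 ratio of H2-DMb2 to H2-DMa could not be formed in 2 samples, where H2-DMb2 was at 0, and was left out.

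**Figure D3:**
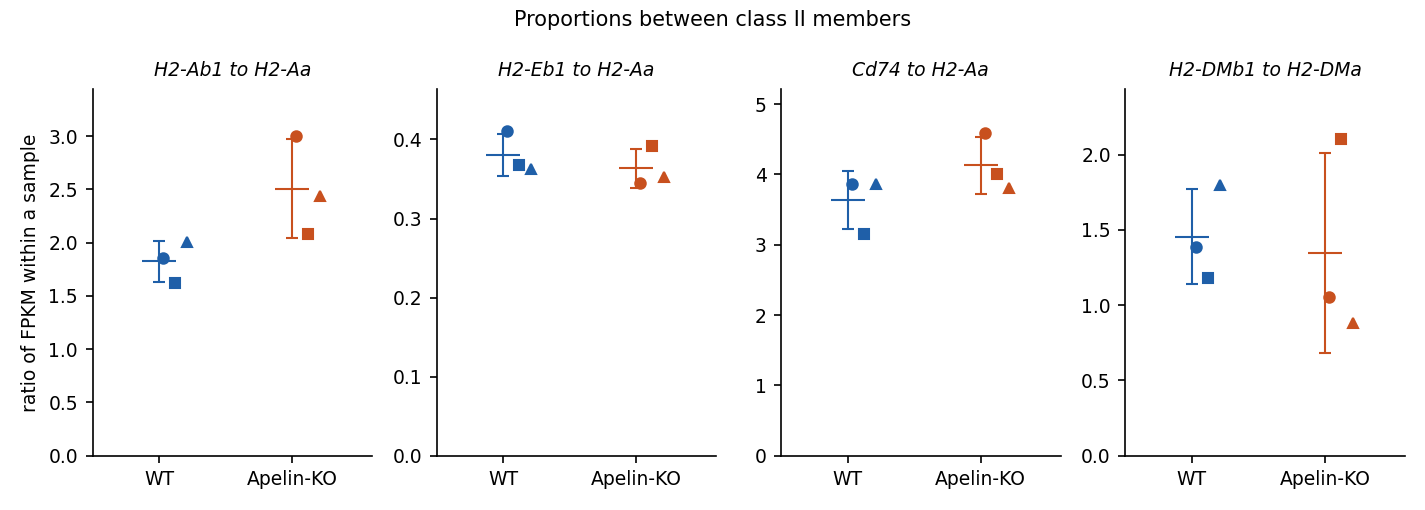
Ratio of the FPKM of 2 members within each sample (vertical axes, no unit), for WT (blue) and Apelin-KO (orange), with symbols for the replicate numbers as circle, square and triangle for 1, 2 and 3, and group mean with 1 SD (n = 3). The H2-Eb1 to H2-Aa ratio stays between 0.345 and 0.411 in all 6 samples, and the H2-Ab1 to H2-Aa ratio is the only one of the 4 in which the groups do not overlap.

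The other genes of the class II pathway lay on both sides of 0. Of 29 listed, 23 were tested, and 10 were higher and 13 lower in WT. Of these, 1 was higher and 1 lower with an unadjusted p under 0.05, beside 5.17% and 4.25% of all genes tested. None had an adjusted p under 0.05. The median log2 fold change of the 23 was -0.03. Ctss, the protease that makes the last cuts of the invariant chain in macrophages, dendritic cells and B cells, was the higher one, with 153, 247 and 59.2 FPKM in WT and 22.2, 72.1 and 50.5 FPKM in Apelin-KO samples (log2 fold change 1.57 ± 0.59 SE, adjusted p = 0.513). Cathepsins of wider expression lay closer between the groups: the log2 fold change was -0.03 ± 0.09 (SE) for Ctsb and 0.34 ± 0.14 (SE, adjusted p = 0.525) for Ctsd.

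Among the factors that bind the class II promoter, 7 of 7 were tested, with 2 higher and 5 lower in WT. Rfxap encodes a subunit of the RFX complex on the X box. It had 10.167, 9.997 and 10.264 FPKM in WT and 13.5, 11.1 and 14.1 FPKM in Apelin-KO samples. The log2 fold change of Rfxap was -0.32 ± 0.11 (SE, adjusted p = 0.512). Creb1 encodes the cAMP response element binding protein that occupies the X2 element. It was higher in each WT sample than in any Apelin-KO sample, as were 6.61% of all genes tested. The log2 fold change of Creb1 was 0.16 ± 0.09 (SE, adjusted p = 0.622). Nfyb, a subunit of the Y-box factor NF-Y, had a log2 fold change of 0.02 ± 0.10 (SE).

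Of the 8 interferon gamma signalling genes, 4 were higher and 4 lower in WT and none had an unadjusted p under 0.05. The receptor gene Ifngr1 had a log2 fold change of -0.05 ± 0.11 (SE), the kinase gene Jak1 -0.06 ± 0.11 and the feedback inhibitor gene Socs1 0.40 ± 0.22. Of the ligases that turn over surface class II molecules, March8 had a log2 fold change of -0.09 ± 0.09 (SE), and March1 was under 1 FPKM in every sample. Cd40, the only costimulator gene with a mean of at least 1 FPKM, had a log2 fold change of 0.14 ± 0.13 (SE). All 4 costimulator genes were higher in WT in the fit without the filter, 0 of them with an unadjusted p under 0.05. Cd86 had 2.06, 1.89 and 0.326 FPKM in WT and 0.091, 0.540 and 0.271 FPKM in Apelin-KO samples (log2 fold change 0.82 ± 0.35 SE, adjusted p = 0.562 in limma without the filter).

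Class I presentation genes, which ECs like most cells express constitutively, were abundant and less spread. All 9 were higher in the WT mean with a median log2 fold change of 0.30, against 1.35 for the 6 tested class II members, and 3 of the 9 had an unadjusted p under 0.05, beside 47.5% and 5.17% of all genes tested. The difference between the lists was not tested. H2-K1, a class I heavy chain, had 1111, 1114 and 1136.5 FPKM in WT and 729, 1096 and 739 FPKM in Apelin-KO samples (log2 fold change 0.42 ± 0.17 SE, adjusted p = 0.522). Psmb8, an immunoproteasome subunit, had a log2 fold change of 0.40 ± 0.13 (SE, adjusted p = 0.503). Nlrc5, the class I counterpart of Ciita and named here after its values were seen, had 5.37, 4.57 and 4.80 FPKM in WT and 2.835, 5.60 and 2.26 FPKM in Apelin-KO samples, and was thus above Ciita in each sample. Apelin-KO 1 and Apelin-KO 3 had the lowest values of H2-K1 and Nlrc5, as they did of H2-Aa, Cd74 and Ciita.

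Class II genes are expressed by leukocytes as well as by induced ECs, and markers of leukocytes moved with them. All 12 macrophage and monocyte markers were higher in the WT mean (median log2 fold change 1.25), 6 of them with an unadjusted p under 0.05 (beside 5.17% of all genes tested) and 0 with an adjusted p under 0.05 in limma. In the fit without the filter 2 of the 12 had an unadjusted p under 0.05. Their summed FPKM was 225 to 854 in WT and 91.9 to 272 in Apelin-KO samples, and no marker of this list was at 0 in all samples. The 4 pan-leukocyte markers were also all higher in the WT mean, 2 with an unadjusted p under 0.05. Ptprc had 3.13, 4.84 and 1.27 FPKM in WT and 0.043, 1.70 and 0.740 FPKM in Apelin-KO samples, the order of H2-Aa. B cell markers were near 0, with sums of 0.243 to 0.813 FPKM in WT and 0 to 0.519 FPKM in Apelin-KO samples and with Fcer2a at 0 in all 6. Of 10 dendritic cell markers, Zbtb46 and Clec9a were the only 2 with a mean of at least 1 FPKM, Siglech was at 0 in all 6, and the sums were 22.9 to 26.3 FPKM in WT and 25.0 to 25.5 FPKM in Apelin-KO samples. Most of these sums was Zbtb46, at 19.8 to 23.5 FPKM per sample, so the sums say little of the other markers of the list. Both tested dendritic cell markers were lower in the WT mean, with log2 fold changes of -0.13 for Zbtb46 and -0.01 for Clec9a, while 6 of the 10 listed were higher in WT in the fit without the filter. Batf3 and Itgax, named after their values were seen, had means of 1.10 and 0.661 FPKM in WT and 0.332 and 0.207 FPKM in Apelin-KO samples, with no overlap between the groups for Batf3 (log2 fold change 0.66 ± 0.23 SE, adjusted p = 0.515 in limma without the filter). T cell markers summed to 0.716 to 1.90 FPKM in WT and 0.236 to 1.54 FPKM in Apelin-KO samples. All 15 endothelial markers were lower in the WT mean, 4 of them with an unadjusted p under 0.05 (beside 4.25% of all genes tested), with sums of 5807 to 7075 FPKM in WT and 7243 to 7802 FPKM in Apelin-KO samples. The 4 fibroblast markers tested were all higher in the WT mean, 3 with an unadjusted p under 0.05, or 1 in the fit without the filter (sums of 137 to 236 FPKM in WT and 92.5 to 141 FPKM in Apelin-KO samples). Of 5 pericyte markers tested, 4 were lower in the WT mean, with sums of 129 to 172 FPKM in WT and 173 to 205 FPKM in Apelin-KO samples, and epithelial markers summed to at most 0.491 FPKM in any sample. The part that these other cell types have in the class II difference was not tested.

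The members were also set against macrophage markers within each sample, a comparison chosen after the values were seen and given with no test. The ratio of H2-Aa to each of the 12 markers ranged 1.73-fold to 5.46-fold between the lowest and highest sample (median 2.21-fold), against 11.9-fold for H2-Aa itself. For Mertk (4.04-fold) and Cd14 (5.46-fold) it varied more than the marker did (3.37-fold and 3.26-fold). The genotypes did not overlap for 1 marker, Mertk. The narrowest range was that to Csf1r, a macrophage receptor gene whose pattern was the closest of the 12 to that of the class II chains, so its ratios are the least varied by choice. Csf1r had 21.5, 34.2 and 9.19 FPKM in WT and 3.50, 12.7 and 8.63 FPKM in Apelin-KO samples, a 9.76-fold range. The ratio of H2-Aa to Csf1r was 3.70, 3.75 and 4.59 in WT and 3.06, 4.16 and 2.65 in Apelin-KO samples. Over the 6 tested members the ratio to Csf1r ranged 1.52-fold to 2.71-fold between the lowest and highest sample, and the genotypes overlapped for each. The ratio of H2-Aa to Ptprc was 25.4, 26.5 and 33.3 in WT and 31.1 and 30.9 in Apelin-KO 2 and 3, but 249 in Apelin-KO 1. In Apelin-KO 1, Ptprc rested on an estimated 1.79 reads and H2-Aa on 92.3, so this ratio is not precise.

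**Figure D4:**
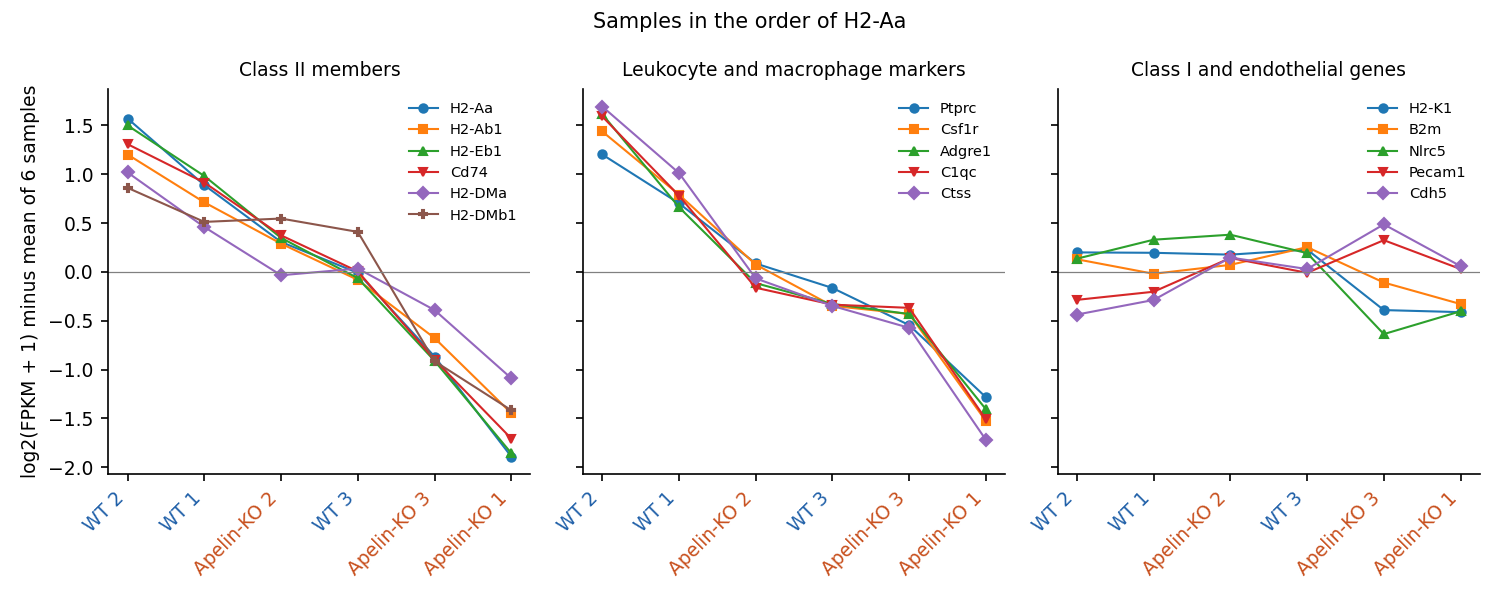
Level of each gene in each sample as log2(FPKM + 1) minus its mean over the 6 samples (vertical axis), with samples in the order of their H2-Aa level (horizontal axis) for class II members (left), leukocyte and macrophage markers with Ctss (middle), and class I and endothelial genes (right). Each gene plotted on the left and in the middle is highest in WT 2 and lowest in Apelin-KO 1. H2-DMb1 is slightly higher in Apelin-KO 2 than in WT 1. The middle plot holds a choice of the listed markers, made in part after the values were seen. Mrc1, Cd14 and Mertk, macrophage markers that are not plotted, are highest in WT 1. H2-K1, B2m and Nlrc5 vary less, and Pecam1 and Cdh5 lie higher in Apelin-KO 3 than in WT 1 or WT 2.

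The genes whose pattern was most like that of the class II chains were looked for among 10958 other genes, by Pearson's r with the mean log2(FPKM + 1) of H2-Aa, H2-Ab1, H2-Eb1 and Cd74 over the 6 samples. Among the closest were Pyroxd1 (0.993), Fcgr2b (0.993), Ptprc (0.990) and Riok2 (0.990). Fcgr2b encodes the inhibitory Fc receptor, known from myeloid cells and B cells. After the group means were taken out, those among the closest were Pdp2 (0.999), Slc37a2 (0.997), Metap1 (0.993) and Edem1 (0.992), none of which was named by the first measure. With 6 samples and 10958 candidates these values are a description, with no test. On the same measure over 6 samples, r with the mean of the 4 genes was 0.979 for H2-DMa, 0.949 for H2-DMb1 and 0.918 for Ciita, and 0.308, -0.0934 and 0.0356 for H2-DMb2, H2-Oa and H2-Ob.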

How the data were processed

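RNA of CD31 positive, CD45 negative cells sorted from MC38 tumors was sequenced in 3 WT and 3 Apelin-KO samples. Libraries were made with a stranded mRNA kit and read in a 75-base single-end mode. Per the labels' processing notes, the authors used bcl2fastq 2.17.1.14, TopHat2 2.1.1, Bowtie2 2.2.4, SAMtools 1.0 and Cufflinks 2.2.1 with mm10, and the deposited values are FPKM. The paper's methods name other versions of TopHat, Bowtie2 and SAMtools, and which were used for these files was not settled. Which annotation was used, how strand was treated and whether genes were filtered is not given in the sources used here.

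FPKM were compared as log2(FPKM + 1) with limma 3.58.1 in R 4.3.3 (two-sided moderated test, no block) for genes averaging at least 1 FPKM, with Benjamini-Hochberg adjustment over the 10964 genes tested. The script was tested on simulated data. The pseudocount shrinks the fold changes of low genes. Members under the filter were taken from a fit of the 16341 genes above 0 in at least 1 sample. Single members were also compared by exact permutation over samples. Depth was estimated from the FPKM steps of 3742 genes with 1 transcript, assuming 200-base fragments, and no count test was run. Positions are from GENCODE vM21 (GRCm38).

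The members were chosen by gene name and the lists by function, both with earlier results of these data known. All members and Apln were named. From each other list, at most the 2 genes of highest mean and the 2 of lowest p, defining markers at 0, and genes among the 5 most like the members were named, and some genes of these lists are not reported here. Pecam1, Csf1r, Nlrc5, Batf3, Itgax, Mertk, Cd14 and the genes of the sample-order plot outside this rule were named after their values were seen. Alternatives changed the pseudocount, filter, scaling, variance, weights, block or samples.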

Additional observations from a re-analysis of the deposited data

How the results depend on the processing

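In 17 alternatives to the pseudocount, filter, scaling, variance, weights, block and samples, H2-Aa, H2-Ab1, H2-Eb1, Cd74, H2-DMa and H2-DMb1 stayed higher in WT and none had an adjusted p under 0.256 (limma). Leaving out 1 sample gave log2 fold changes of 1.10 to 2.195 for H2-Aa, 0.80 to 1.67 for H2-Ab1, 1.09 to 2.19 for H2-Eb1, 1.0 to 2.04 for Cd74, 0.72 to 1.24 for H2-DMa and 0.78 to 1.76 for H2-DMb1. The number of members with an unadjusted p under 0.05, 6 as reported, was 0 with each gene's own variance, 1 with array weights, 4 without the filter, and 0 to 6 when 1 sample was left out. Ciita stayed higher in WT, at 0.075 to 0.68 over its 15 alternatives, with an unadjusted p under 0.05 in 1, without Apelin-KO 2. Low members changed sign: H2-Oa was at -0.036 after quantile normalization, and leaving out 1 sample gave -0.11 to 0.11 for H2-Oa (negative without WT 2, Apelin-KO 2 or Apelin-KO 3), -0.10 to 0.38 for H2-DMb2 (negative without WT 2) and -0.16 to 0.0047 for H2-Ob (positive without WT 3 or Apelin-KO 1). Their reads are too few to give a direction.

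Over all genes, 1 had an adjusted p under 0.05. It became 2 if the pseudocount was 5, if no filter was set, if genes had to average 5 FPKM or if an intensity trend was used, 0 with each gene's own variance, and 0 to 3 when 1 sample was left out. Genes more than 2-fold higher in WT with an unadjusted p under 0.05 numbered 84, and 157 with a pseudocount of 0.1, 23 with one of 5, 46 among genes averaging at least 5 FPKM, 21 with each gene's own variance and 28 to 221 when 1 sample was left out. Those lower numbered 9, and 24, 3 and 8 to 17 with a pseudocount of 0.1, with one of 5 and when 1 sample was left out. The cause was not tested.

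Deviations of same-numbered samples correlated at -0.14, 0.21 and -0.02. With 3 samples per group, these values cannot settle whether the replicate numbers pair the samples. With the replicate number as a block, H2-Aa had a log2 fold change of 1.63 ± 0.39 (SE, adjusted p = 0.575). Its unadjusted p was 0.00830 with the block and 0.0289 without it (limma). With the block, 6 members had an unadjusted p under 0.05 and 1 gene an adjusted p under 0.05.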
